A study of Mus musculus with 12 samples.

Results

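The genes described here encode nuclear subunits of respiratory chain complexes II, III and IV, ATP synthase (complex V) and the electron carrier cytochrome c. They were taken by name from the protein-coding genes of the deposited expression table: Sdha to Sdhd, symbols that start with Uqcr or Atp5, Cyc1, Cycs, and Cox4 to Cox8 followed by a letter, without pseudogenes. This gave 50 of 54532 genes, 4 for complex II, 9 for complex III, 18 for complex IV, 18 for complex V and 1 for cytochrome c. In all, 43 had enough reads to be tested. RNA came from Hepa 1-6, a mouse hepatoma line with a wild-type genotype per the labels, transfected with small interfering RNAs (siRNAs). The 4 groups of 3 libraries received a scrambled control pool (siC), siRNAs against Esrra (siERRa), siRNAs against Hcfc1 (siHCFC1) or both (siERRa+siHCFC1). In all groups 400000 cells were plated per 6 cm dish and transfected at 100 nM, with a second transfection at 48 h. All were harvested at 96 h with 200 nM siRNA in total. The sources used here state neither how that dose was divided in the combined group nor whether replicate libraries had cultures of their own. The p-values therefore measure library spread that could be technical. A single cell line was used, and a knockdown lowers its target without removing it.

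Complexes II and III feed and pass electrons to cytochrome c, complex IV hands them to oxygen, and ATP synthase uses the proton gradient so formed to make ATP. Complex II is wholly nuclear-encoded, while the other complexes join nuclear subunits to a few encoded on mitochondrial DNA. The orphan nuclear receptor ERRα, the product of Esrra, is known as an activator of genes of oxidative metabolism. HCFC1 is a chromatin-associated coregulator that is brought to promoters by DNA-binding factors, among them ZNF143 and THAP11.

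Hepatoma genes Alb and Afp were abundant in siC (at least 3545 and 992 TPM, a level scaled to gene length and library total), while Ttr and Serpina1a were at 0 there. Of 10 markers of other cell types, Ptprc, Adgre1, Cdh5 and Acta2 were at 0 in all siC libraries, and Pecam1 and Col1a1 were at most 1.52 TPM. Cd68, a lysosomal protein of macrophages, was at 166, 225 and 218 TPM, Epcam at 66.2, 122 and 60.7, Krt19 at 22.8, 18.4 and 22.8, and Des at 9.52, 7.12 and 12.1. The siC libraries had 59.0, 51.6 and 67.3 TPM of Esrra, those of siERRa 11.01, 19.9 and 12.5, and those of siERRa+siHCFC1 22.4, 19.9 and 16.4. Its falls passed the test in both groups (adjusted p = 0.00702 and 0.00478, edgeR's quasi-likelihood test, Benjamini-Hochberg over 15965 genes). Those of siC had 69.2, 52.2 and 77.6 TPM of Hcfc1, those of siHCFC1 34.8, 38.8 and 24.1, and those with both siRNAs 42.9, 38.6 and 35.3. The siHCFC1 and siC libraries did not overlap, but the difference of -0.85 on the log2 scale missed the threshold (SE 0.26, adjusted p = 0.0668). With both siRNAs the Hcfc1 difference was -0.61 and was not called either (adjusted p = 0.182). The 10 markers of other cell types summed to between 265 and 374 TPM in siC, 243 and 348 in siERRa, 137 and 187 in siHCFC1, and 144 and 172 with both. The 8 hepatocyte markers summed to between 4664 and 7707, 7995 and 10156, 5784 and 7871, and 7180 and 8961 in that order of groups. Of these 18 markers, Apob rose (1.43) and Des fell (-1.25) after siHCFC1, and Hnf4a (-1.16) and Cd68 (-1.05) fell with both. The part of these shifts in the results that follow was not tested. In bulk RNA, fewer cells of a type and less RNA per cell cannot be told apart.

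Uqcr10 and Cox7b, a small subunit of complex III and a small membrane subunit of complex IV, fell after siHCFC1, by 2.03-fold and 1.73-fold. Among the 43 tested genes, only they passed the test in any of the 5 pairwise comparisons made, which leave out siERRa against siHCFC1. In siERRa the libraries of both overlapped those of siC. In siERRa+siHCFC1 every library of both was below every siC library, but the differences missed the threshold.

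Stretches of 100 bases of their promoters are shown because each holds the letters CTACANNTC, from the core of the motif that ZNF143 and THAP11 bind (N is any base). Those of Cox7c, a further small complex IV subunit that was lower after siHCFC1 without passing the test, and of Atp5o, a peripheral stalk subunit of ATP synthase that was not lower, are set beside them. The match is in capitals, and all are RefSeq sequences of GRCm38.p6, read 5′ to 3′ along the gene's strand.
Uqcr10: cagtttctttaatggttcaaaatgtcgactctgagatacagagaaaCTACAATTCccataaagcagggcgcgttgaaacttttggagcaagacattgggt
Cox7b: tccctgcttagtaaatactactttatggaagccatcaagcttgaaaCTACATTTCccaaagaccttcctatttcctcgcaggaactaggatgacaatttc
Cox7c: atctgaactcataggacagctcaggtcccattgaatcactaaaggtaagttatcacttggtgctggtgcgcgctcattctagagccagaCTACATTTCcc
Atp5o: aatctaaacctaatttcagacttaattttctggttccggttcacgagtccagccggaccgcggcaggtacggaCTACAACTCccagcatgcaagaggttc
They lie at chr11:4704348-4704447, minus strand (Uqcr10), chrX:106015573-106015672, plus strand (Cox7b), chr13:86046905-86047004, minus strand (Cox7c) and chr16:91931688-91931787, minus strand (Atp5o). The first base of the match is 57 bases before the RefSeq start of Uqcr10, 81 before that of Cox7b, 120 before that of Cox7c and 84 before that of Atp5o.

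Uqcr10 (chr 11, 4701973 to 4704342 of mm10, minus strand) was at 337, 301 and 372 TPM in siC and at 127, 104 and 222 in siHCFC1. All 3 siHCFC1 libraries lay below all 3 siC libraries, though 1 of them stood well above the others. The log2 change was -1.02 (SE 0.252, adjusted p = 0.0273, edgeR). Cox7b (chr X, 106015700 to 106022450, plus strand) was at 253, 205 and 258 TPM in siC and at 136, 89.6 and 150 in siHCFC1, again with no overlap. Its log2 change was -0.79 (SE 0.187, adjusted p = 0.0212). Among all tested genes 4.22% were called lower in this comparison and 6.68% in either direction, against 2 of the 43 members lower and 0 higher, where 2.46% of all tested genes were called higher. DESeq2 called 4 members (10.9% of the genes it tested), and the authors' deposited table calls 3 (7.57% of its genes). Leaving out siC library 1 or 3 or siHCFC1 library 1 or 2 ended both calls, and leaving out siC library 2 ended that of Uqcr10. The log2 changes in those fits ran from -1.05 to -0.85 for Uqcr10 and from -0.81 to -0.64 for Cox7b.

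In siERRa+siHCFC1, Uqcr10 was at 240.1, 123 and 238 TPM and Cox7b at 158, 105 and 174. Both genes thus lay below siC (-0.65, SE 0.25, adjusted p = 0.144, and -0.60, SE 0.186, adjusted p = 0.0672) and below siERRa (-0.69, adjusted p = 0.166, and -0.71, adjusted p = 0.0533), without passing the test. With siERRa alone, Uqcr10 was at 352, 256 and 395 TPM and Cox7b at 253, 209 and 284, ranges that overlap siC. Against siHCFC1 the combined group differed by 0.37 (SE 0.25) for Uqcr10 and 0.19 (SE 0.186) for Cox7b, with overlapping libraries and adjusted p = 0.918 and 0.999. These 3 comparisons with siC share the same siC libraries.

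**Figure D1:**
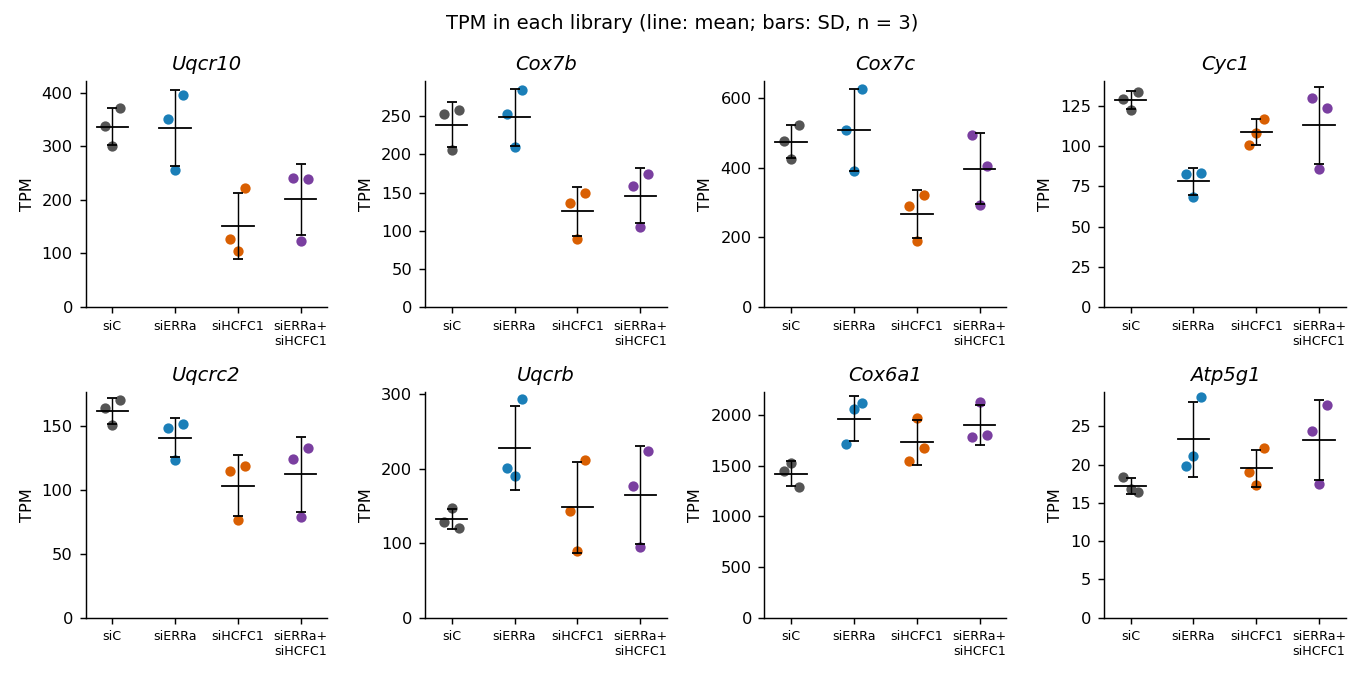
TPM of 8 genes in each of the 12 libraries, by group (points: libraries; line: group mean; bars: SD, n = 3). In siHCFC1 the libraries of Uqcr10 (104 to 222), Cox7b (89.6 to 150) and Cox7c (189.7 to 322) lie below those of siC. So do those of Uqcrc2 (76.2 to 119) and, in TPM but not on TMM-scaled counts, Cyc1 (101 to 117). Those of Cox6a1 (1547 to 1971) lie above siC. In siERRa the libraries of Cyc1 (68.3 to 83.4) lie below siC. Each axis starts at 0 and has its own scale.

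By complex, siHCFC1 shifted few genes far. In complex II, which takes electrons from succinate, the catalytic flavoprotein Sdha was at 165, 158 and 156 TPM in siC and 128, 104 and 121 in siHCFC1. Its libraries did not overlap, but the change of -0.29 was not called (SE 0.157, adjusted p = 0.321). The iron-sulfur subunit Sdhb was at 70.9, 53.0 and 62.8 TPM in siC and 51.1, 43.6 and 77.3 in siHCFC1, with overlap. Of the 4 subunits, 3 were below 0 and 0 were called.

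In complex III, 7 of 9 genes were below 0 after siHCFC1, with a median of -0.29, and Uqcr10 alone was called. Uqcrc2 and Uqcr11 were named after their values were seen, as were Cox7c, Cox6b1, Atp5mpl, Uqcrb and Atp5d in the text that follows. The core subunit Uqcrc2 was at 164, 151 and 171 TPM in siC and 115, 76.2 and 119 in siHCFC1. Its libraries did not overlap, and its change was -0.51 (SE 0.176, adjusted p = 0.105, called by DESeq2). An antisense gene, Pdzd9, covers 19.7% of its exon bases, and without strand in the libraries the reads cannot be told apart. The small subunit Uqcr11 was at 107, 93.7 and 144 TPM in siC and 69.0, 75.2 and 80.9 in siHCFC1 (-0.45, SE 0.213, adjusted p = 0.244), also without overlap. Cytochrome c1, encoded by Cyc1, hands electrons to cytochrome c. It was at 129, 122 and 134 TPM in siC and 101, 108 and 117 in siHCFC1, all below siC in TPM. On TMM-scaled counts its groups overlapped and the difference was -0.08 (SE 0.163, adjusted p = 0.844). Cycs, cytochrome c itself, was at 56.8, 49.9 and 68.5 TPM in siC and 54.4, 28.6 and 78.7 in siHCFC1, with siHCFC1 spanning the siC range.

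In complex IV, 9 of 12 tested genes were below 0 after siHCFC1 (median -0.14). Cox7c was at 477, 426 and 523 TPM in siC and 289, 189.7 and 322 in siHCFC1. Every siHCFC1 library was below every siC library, and the change of -0.69 missed the threshold (SE 0.216, adjusted p = 0.07). DESeq2 called it, as did the authors' deposited table (log2 -0.66, adjusted p = 0.0221). Because 24.5% of the 31-base words of Cox7c recur in other genes, part of its reads may come from those. In siERRa+siHCFC1, Cox7c was at 494, 292 and 406 TPM, above each siHCFC1 library on the TMM scale, by 0.56 (SE 0.215, adjusted p = 0.59). Moving the other way, Cox6a1, the liver-type subunit 6a and the most abundant member, was at 1448, 1528 and 1287 TPM in siC and 1547, 1971 and 1670.0 in siHCFC1. The ranges met without overlap, and the difference of 0.45 was not called (SE 0.233, adjusted p = 0.296).

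In complex V, 9 of 17 tested genes were above 0 and 8 below after siHCFC1 (median 0.02), and 0 were called. The catalytic subunit Atp5b, its most abundant member, was at 798, 672 and 821 TPM in siC and 648, 519 and 796 in siHCFC1, with overlap. Atp5mpl, a small subunit of the membrane part, was at 72.1, 71.3 and 95.8 TPM in siC and 42.6, 38.4 and 56.3 in siHCFC1. Those groups did not overlap, and the change was -0.65 (SE 0.232, adjusted p = 0.114). Over all 43 genes the median change was -0.13, against 0.00 over all tested genes, with 27 below 0 and 16 above. It ran from -0.26 without siHCFC1 library 3 to 0.01 without siHCFC1 library 2. On TMM-scaled counts, groups did not overlap for 7 members lower and 2 higher, beside 15.8% and 11.5% of all tested genes.

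**Figure D2:**
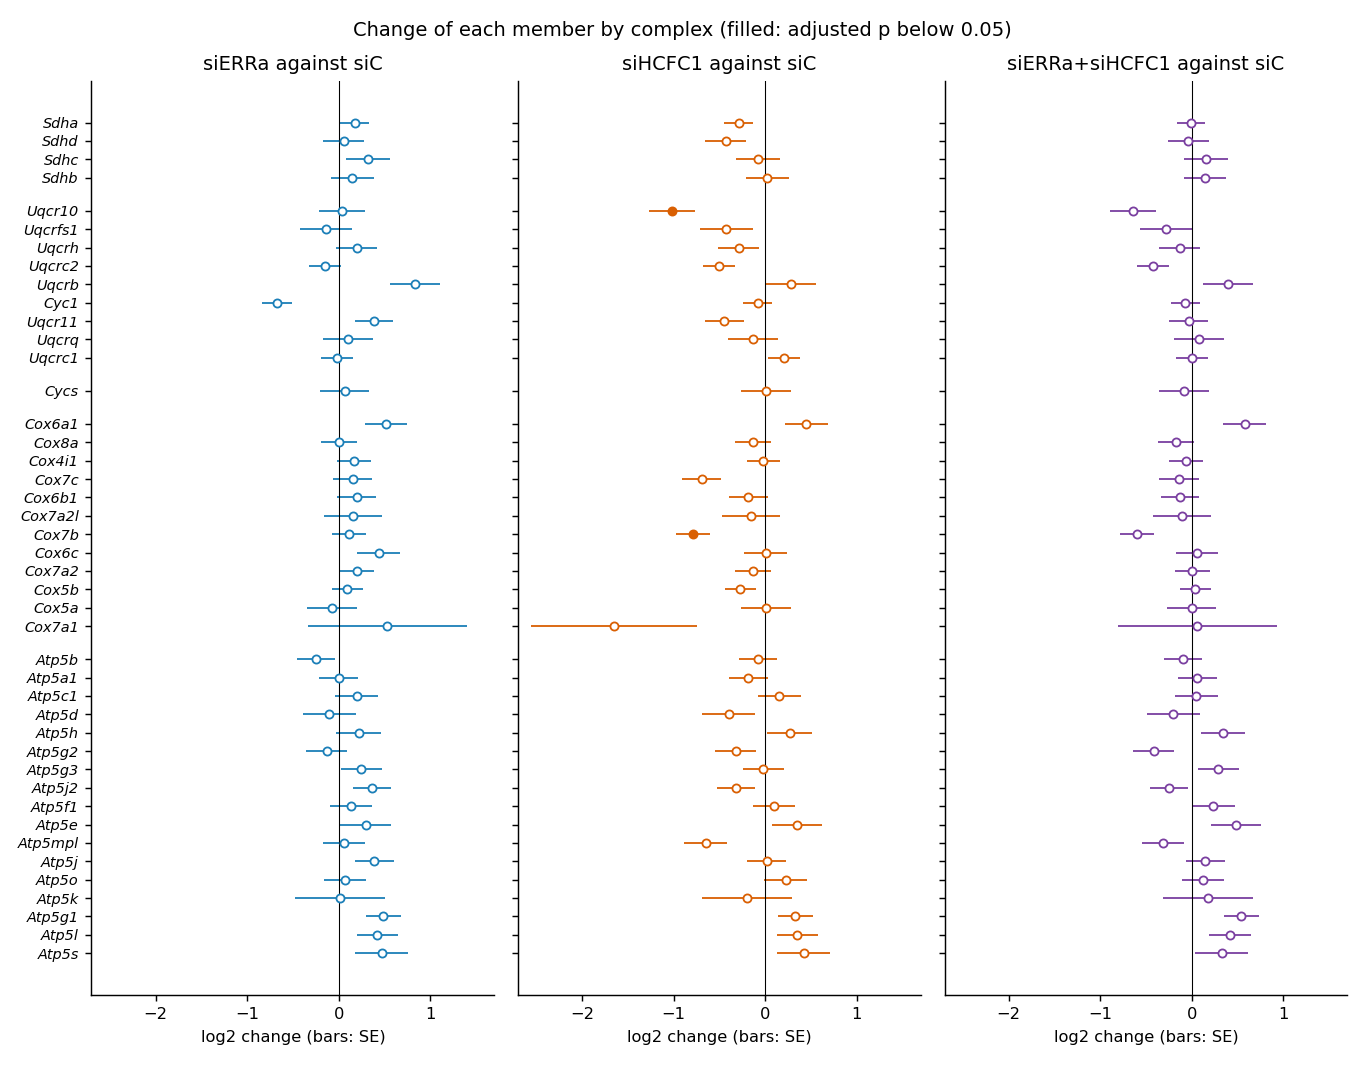
Log2 change of each of the 43 tested genes against siC, from top to bottom complex II, complex III, cytochrome c, complex IV and complex V, each sorted by siC level (bars: SE; filled points: adjusted p below 0.05). The 2 filled points are Uqcr10 (-1.02) and Cox7b (-0.79) in siHCFC1, and Cox7a1, with a count of 0 in 1 siHCFC1 library, has the widest bars.

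After siERRa no member was called (0 of 43, edgeR, beside 0.438% of all tested genes). An unadjusted edgeR p under 0.05 was found for 4 members, beside 1640 of all 15965 tested genes. DESeq2 called 1 member, beside 2.81% of the genes it tested. Cyc1 had the lowest log2 change. It was at 129, 122 and 134 TPM in siC and 82.6, 68.3 and 83.4 in siERRa. No siERRa library reached the lowest siC library. The change was -0.67 (SE 0.164, adjusted p = 0.101), DESeq2 called it (adjusted p = 0.0053), and in siERRa+siHCFC1 Cyc1 was at 130, 85.5 and 124 TPM. There it overlapped siC (-0.07, SE 0.163) and on the TMM scale stood above siERRa (0.60, SE 0.164, adjusted p = 0.0629). In the test over all 3 comparisons with siC, which called 10.4% of all tested genes, Cyc1 was called (adjusted p = 0.0455) beside Cox7b (0.0107) and Uqcr10 (0.0264).

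Most members lay slightly above siC after siERRa. Their median change was 0.15, against 0.01 over all tested genes, with 34 of 43 above 0, and it ran from -0.04 without siERRa library 3 to 0.28 without siERRa library 2. All 4 genes of complex II, 5 of 9 of complex III, 11 of 12 of complex IV and 13 of 17 of complex V were above 0. Outside the members, 32 of 36 complex I subunits were above 0 in this comparison, with a median of 0.27. On TMM-scaled counts, the ranges of 7 members lay above siC and those of 1 below, beside 7.17% and 9.16% of all tested genes. Uqcrb, a complex III subunit that binds ubiquinone, was at 129, 148 and 121 TPM in siC and 201, 190.0 and 293 in siERRa. The groups did not overlap, yet the change of 0.83 was not called (SE 0.275, adjusted p = 0.254), while the authors' deposited table calls it (log2 0.86, adjusted p = 0.0387) as its only member, beside 1.29% of its genes. In all, 34.8% of its 31-base words recur in other genes. In siERRa+siHCFC1, Uqcrb was at 177, 94.4 and 224 TPM and overlapped siC.

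Cox6a1 was above siC in all 3 knockdown groups. It was at 1712, 2058 and 2122 TPM in siERRa and 1781, 2129 and 1800.0 in siERRa+siHCFC1, above every siC library in both. The changes were 0.52 (SE 0.233, adjusted p = 0.456) and 0.58 (SE 0.233, adjusted p = 0.161), and the authors' deposited table calls the second (log2 0.62, adjusted p = 0.0399). Atp5g1, 1 of 3 genes for the same membrane-ring subunit of ATP synthase, was at 18.4, 16.9 and 16.4 TPM in siC. The single knockdowns gave 19.9, 21.1 and 28.9 (siERRa) and 19.1, 17.4 and 22.2 (siHCFC1), and both together 24.4, 17.5 and 27.8. On TMM-scaled counts all 3 knockdown groups lay above siC, by 0.49, 0.33 and 0.54 (SE 0.189 in the first and last), with adjusted p = 0.358, 0.352 and 0.105. The annotation behind these values gives Atp5g1 a length of 4912 bases and Atp5l 6443, the union of all their exons, which lowers their TPM.

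The combined knockdown called 0 of 43 members against siC (6.89% of all tested genes were called). An unadjusted edgeR p under 0.05 was found for 5 members, beside 3361 of all 15965 tested genes. DESeq2 called 2, Cox7b and Atp5g1, beside 11.7% of its genes. The authors' deposited table calls 4 (9.65% of its genes), Cox7b and Uqcr10 lower and Cox6a1 and Atp5g1 higher. On TMM-scaled counts, ranges did not overlap siC for 4 members higher and 6 lower, beside 13.3% and 16.7% of all tested genes. The median change was 0.00, with 21 genes above 0 and 22 below. Of complex III, 7 of 9 were below 0 and of complex V, 12 of 17 above. Against siERRa the combined group called 0 of 43 (3.24% of all tested genes). Here 4 members had an unadjusted edgeR p under 0.05, beside 2737 of all 15965 tested genes. DESeq2 called 3, beside 8.25% of its genes, and the authors' deposited table calls Cox7b, beside 3.22% of its genes. The members had a median of -0.15, with 30 below 0. That median ran from -0.25 without siERRa library 2 to 0.02 without siERRa library 3. Against siHCFC1 the combined group called 0 of 43 (0.00626% of all tested genes). Here 1 member had an unadjusted edgeR p under 0.05, beside 1159 of all 15965 tested genes. DESeq2 called 0, beside 0.503% of its genes. The median was 0.13, with 33 above 0. It ran from 0.00 without siHCFC1 library 2 to 0.26 without siHCFC1 library 3. The departure of the combined change from the sum of the single changes was called for 0 members (0.0% of all tested genes). DESeq2 also called 0, beside 0.0123% of its genes. An unadjusted edgeR p under 0.05 was found for 1 member, beside 439 of all 15965 tested genes. That member was Cyc1, with a departure of 0.68 (SE 0.231, adjusted p = 1.0), the combined group being near siC.

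The TPM of the genes taken by name was also summed over each complex. The name rule leaves out some subunits. Usmg5, of ATP synthase, averaged 1015 TPM in siC, 1492 in siERRa, 896 in siHCFC1 and 962 with both. Ndufa4, of complex IV, averaged 261 in siC, 288 in siERRa, 361 in siHCFC1 and 329 with both. Neither is in these sums, and the order of the groups can differ with them. Complex II summed to 451 ± 54.3 TPM with siC, 489.97 ± 75.6 with siERRa, 347 ± 70.3 with siHCFC1 and 431 ± 127 with siERRa+siHCFC1 (SD, n = 3 each). Complex III came to 1669.6 ± 196, 1705 ± 401, 1195 ± 299 and 1358 ± 348 in the same order. Complex IV came to 5394 ± 177, 6169 ± 995, 4853 ± 701 and 5269 ± 531, and complex V to 3066 ± 359.7, 3018 ± 754, 2647 ± 642 and 2898 ± 755. On the TPM scale the siHCFC1 mean was the lowest of the 4 groups in each complex. Its libraries overlapped those of siC in complexes II, III, IV and V alike. These sums follow the few genes with high levels, and no test was made of them. TPM is not TMM-scaled. The TMM factors were 1.04, 1.02 and 1.05 in siC and 0.976, 0.879 and 1.002 in siHCFC1. A lower factor raises TMM-scaled counts relative to TPM, so the differences between groups can be smaller on that scale.

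**Figure D3:**
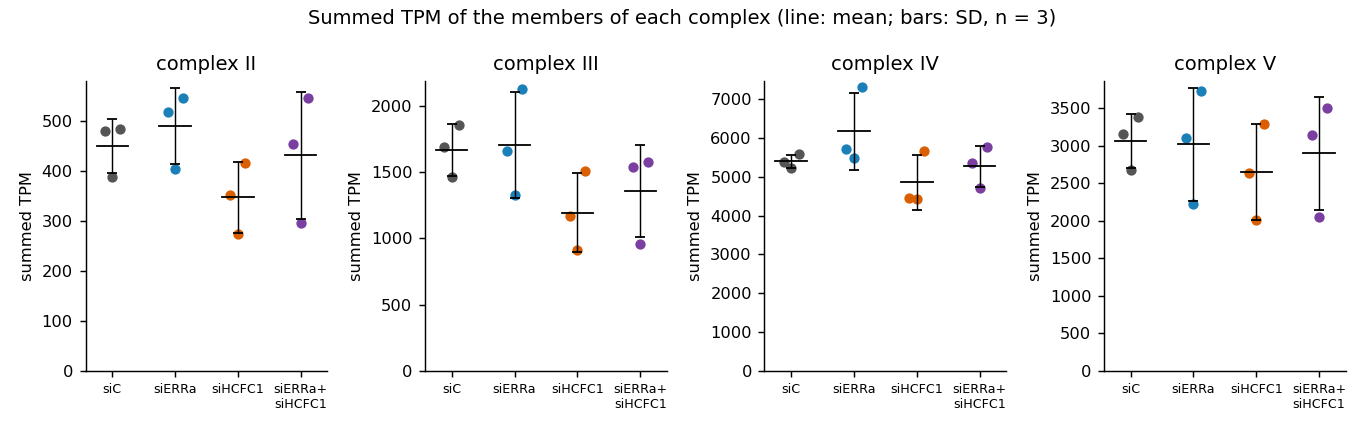
Summed TPM of the genes of each complex taken by name, in every library (points), with the group mean (line) and SD (bars, n = 3). The siHCFC1 mean is the lowest in all 4 panels, from 347 in complex II to 4853 in complex IV, and its libraries overlap siC. These values are not TMM-scaled.

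The library number left a trace in these genes. In each of the 4 groups, library 2 had the lowest share of counts in the 50 genes and library 3 the highest, with single libraries from 0.428% to 0.791%. In the same 4 groups, library 2 had the highest share of counts from the mitochondrial chromosome and library 3 the lowest, from 2.37% to 14.5% over all libraries. Of the 43 genes 18 (41.9%) were lowest in library 2 of every group, against 16.4% of all tested genes, and 10 (23.3%) were highest in library 3, against 9.19%. The libraries held 21.4 to 33.2 M counts. The part of the library number in the results above was not tested beyond the fit with a block for it.

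Levels within siC ran over a wide range on the per-length TPM scale. The tested members had a median of 145 TPM, against 13.1 over all tested genes, and 41 of 43 were above the latter. Complex IV spanned 1421 ± 122 TPM for Cox6a1 to 9.38 ± 3.89 for Cox7a1, and complex V 764 ± 80.4 for Atp5b to 10.0 ± 1.63 for Atp5s, a coupling factor. Complex III spanned 337 ± 35.4 for Uqcr10 to 106 ± 4.84 for the core subunit Uqcrc1, and complex II 159.6 ± 4.68 for Sdha to 62.2 ± 8.97 for Sdhb (SD, n = 3 each). Cycs was at 58.4 ± 9.41.

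**Figure D4:**
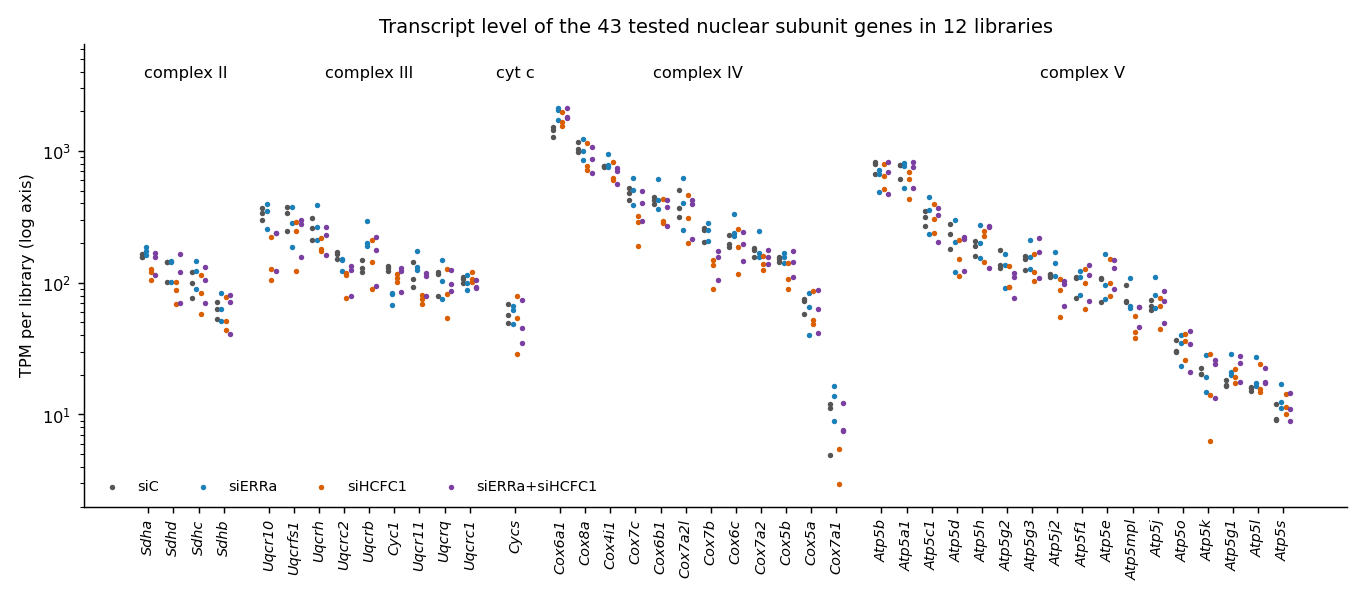
TPM of the 43 tested genes in each library on a log axis, by complex and sorted by siC level, with 4 groups side by side (each point is a library; a value of 0, in 1 siHCFC1 library of Cox7a1, is not drawn). Cox6a1 is the highest, from 1287 to 2129 TPM, and Cox7a1 and Atp5s are the lowest.

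Where a subunit has tissue isoforms, the ubiquitous or liver form dominated. The siC libraries had 751, 772 and 775 TPM of Cox4i1. It was at 784, 756 and 957 after siERRa, 622, 599.8 and 825 after siHCFC1 and 711, 564 and 747 after both. The single knockdowns overlapped siC, while with both every library was below every siC library in TPM but not on TMM-scaled counts. Its lung form Cox4i2 had 43 counts in all 12 libraries together, 37 of them in 2 siERRa libraries. The heart and muscle forms Cox6a2 and Cox8b had 10 and 33 counts, and the testis form Cox6b2 had 35. Cox7b2 and Cox8c, also testis forms, and a second gene ID named Atp5o were at 0. These 7 genes were not tested, and 3 of them are not in the deposited count tables.

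Cox8a, the partner of the Cox8b form, was at 1035, 989 and 1179 TPM in siC and 773, 715 and 1147 in siHCFC1, with overlap. Cox6b1, on the intermembrane side of complex IV, was at 446, 394 and 426 TPM in siC and 293, 284 and 432 in siHCFC1, also with overlap. Of the subunit 7a genes, Cox7a2 took 94.8% ± 2.27 of the summed TPM of Cox7a1 and Cox7a2 with siC, 93.5% ± 2.06 with siERRa, 98.2% ± 1.68 with siHCFC1 and 94.6% ± 1.01 with siERRa+siHCFC1 (SD, n = 3 each). Cox7a1, the heart form, was at 4.90, 11.9 and 11.3 TPM in siC and 2.97, 0 and 5.46 in siHCFC1. Those ranges overlap, and the fitted change of -1.65 had an SE of 0.909 (adjusted p = 0.332). Cox7a2l, which takes part in supercomplex assembly, was at 368, 317 and 510.3 TPM in siC and overlapped it in all groups.

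Atp5g1, Atp5g2 and Atp5g3 encode the same mature ring subunit with different import sequences. In siC they took 5.61% ± 0.769, 47.5% ± 4.33 and 46.9% ± 3.86 of their summed TPM (SD, n = 3). Atp5g2 took 40.5% ± 2.72 with siERRa, 41.7% ± 1.76 with siHCFC1 and 35.5% ± 4.06 with siERRa+siHCFC1, where Atp5g3 took 56.4% ± 4.30. The Atp5g2 share was lower than in any siC library in every library of siERRa+siHCFC1. No test was made of these shares, and 40.2% of the 31-base words of Atp5g2 recur in other genes. In counts, Atp5g2 differed from siC by -0.13, -0.32 and -0.42 after siERRa, siHCFC1 and both, and was not called.

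Promoters of 35 of the 50 genes are in the RefSeq table used, as windows from 250 bases before to 50 after each start. The other 15 were not searched: Sdhc, Cyc1, Uqcrb, Uqcrc2, Uqcrq, Cox4i1, Cox4i2, Cox6a2, Cox6c, Cox8c, Atp5a1, Atp5f1, Atp5mpl, Atp5s and the second Atp5o ID. Cyc1 and Uqcrb had the lowest and highest change after siERRa. The 35 were searched on both strands for 5 motifs, and a match describes letters, not binding. Matches of different motifs did not overlap in members. The ZNF143 and THAP11 letters CTACANNTC were found in 6 of the 35 (17.1%), against 4.91% of 27025 genes. Those 27025 include genes not tested here, while most of the 35 were tested, so the backgrounds are unlike. The 6 were Uqcr10, Cox7b, Cox7c, Atp5d, Cox8a and Atp5o. Changes of the 6 after siHCFC1 were -1.02, -0.79, -0.69, -0.40, -0.14 and 0.22 in that order. The match of Cox8a is the reverse complement, 188 bases before the start, and Uqcr10 has a second one of that kind, 229 before it. Atp5d encodes the delta subunit of the ATP synthase central stalk, was at 234, 179.8 and 279.6 TPM in siC and 152, 112 and 212 in siHCFC1, and was not called (SE 0.292, adjusted p = 0.496). Atp5o was at 29.96, 30.3 and 36.8 TPM in siC and 36.2, 26.0 and 40.6 in siHCFC1, with overlap, and shares 49.6% of its 31-base words with other genes. The 26 other tested members with a window had a median of -0.11 and 0 called.

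Over all tested genes with a window, 89 of 750 with these letters (11.9%) were called lower after siHCFC1, against 429 of 9887 without (4.34%), and 29 (3.87%) against 251 (2.54%) were called higher. The medians were -0.11 and 0.01. With siERRa+siHCFC1, 70 of 750 (9.33%) were called lower, against 438 of 9887 (4.43%). Fixing both free letters, as CTACAATTC, left 85 genes, of which 21 (24.7%) were called lower after siHCFC1, against 4.71% of the 10552 others. Uqcr10 and Atp5d hold that form. With 1 more fixed letter at each end of the first form, 80 of 490 genes (16.3%) were called lower, and Cox8a no longer matched. All 3 forms were chosen after the data were seen. These shares are a description, and other features of the promoters were not held equal.

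**Figure D5:**
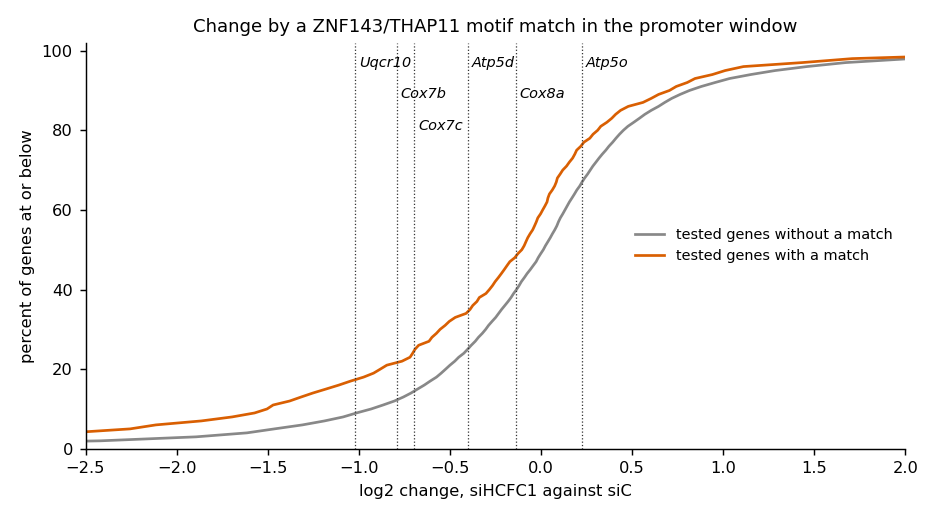
Percent of tested genes at or below each log2 change after siHCFC1, for 750 genes with the ZNF143 and THAP11 letters in the promoter window (orange) and 9887 without (grey), drawn from percentiles 1 to 99. Dotted lines mark the 6 members with a match, from Uqcr10 (-1.02) to Atp5o (0.22), and the median of genes with a match is -0.11 against 0.01.

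The ERR element TNAAGGTCA was in the windows of Sdhd and Atp5g3, 2 of 35 (5.71%), against 1.43% of all genes. That of Atp5g3 is shown because its match lies before the start, 52 bases upstream (chr2:73911327-73911426, minus strand), with the reverse complement of the motif in capitals.
Atp5g3: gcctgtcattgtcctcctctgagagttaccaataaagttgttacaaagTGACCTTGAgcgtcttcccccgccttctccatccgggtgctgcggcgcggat
Atp5g3 was at 161, 124 and 151 TPM in siC and 158, 128 and 213 in siERRa, with overlap (0.25, adjusted p = 0.834). Sdhd, a membrane anchor of complex II, was at 145, 101 and 143 TPM in siC and 146, 101 and 143 in siERRa, equal within the spread (0.06, adjusted p = 0.985). Over all tested genes with the ERR letters, 0 of 111 were called lower after siERRa, against 36 of 10526 without (0.342%). At the share of genes without the letters, 0 of 111 is likely as well, so nothing is drawn from it. The NRF1 motif GCGCANGCG was found in 13 of 35 members (37.1%, against 7.03% of all genes), the ETS motif CCGGAAG in 12 (34.3%, against 9.93%) and the YY1 motif AAGATGGC in 2 (5.71%, against 3.19%). Among tested genes with a window, 1538 held the NRF1 letters and 9099 did not. For ETS these were 2078 and 8559, and for YY1 546 and 10091. For these motifs that share is higher than over all genes, which narrows the excess in members. Members with the NRF1 letters had a median of 0.01 after siHCFC1 and those with the ETS letters -0.06.

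Other genes of the same pathway gave these counts, to be read beside the shares of all tested genes called after siHCFC1 (4.22% lower, 2.46% higher) and after both (6.89% in either direction). Of 21 tested assembly factors of complex IV, Cox10, which makes heme A precursor, rose (1.28, SE 0.275, adjusted p = 0.013), and Sco1, a copper carrier, fell (-1.02, SE 0.243, adjusted p = 0.022). Taco1 (-3.01, adjusted p = 0.0469), an activator of mitochondrial COX1 translation, and Coa3 (-1.08, adjusted p = 0.0493) fell too. Of complex V assembly factors, Atpaf1 fell in siERRa+siHCFC1 (-1.27, SE 0.325, adjusted p = 0.0299), 1 of 4 called. Assembly factors of complexes II and III had 0 of 4 and 0 of 6 called in each comparison with siC. Of the 6 mitochondrially encoded subunits of complexes III to V, 0 were called, and all 6 were above 0 after each knockdown (medians 0.50, 0.86 and 0.92), as the mitochondrial share of counts was. Of 36 complex I subunits, 6 fell after siHCFC1, among them Ndufa3 (-2.21, SE 0.321, adjusted p = 0.00132), Ndufa10 (-1.22, adjusted p = 0.00615) and Ndufv2 (-1.05, adjusted p = 0.0186), beside 2 of 43 here; the difference between these counts was not tested. Of 13 tested regulators, the coactivator gene Pprc1 fell after siHCFC1 (-1.08, SE 0.168, adjusted p = 0.00206) and after both (-0.79, adjusted p = 0.0108).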

How the data were processed

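RNA-seq was made of 4 groups of 3 libraries with a kit that did not keep strand, per the labels' protocols. The submitters' processing notes name the build mm10 and the tools featureCounts (1.5.0-p3), HISAT2 (2.0.5) and DESeq2 (1.20.0), without their settings. The authors deposited counts per gene, TPM, and tables of log2 fold changes with adjusted p-values. Counts of the 5 tables agreed in every shared cell, 5451 blank cells were set to 0, and 60 normalized per-sample columns were not used. The third TPM column of each group carries the number 4 in its name and holds library 3.

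Here counts were tested in R 4.3.3 with edgeR 4.0.16 (quasi-likelihood test, TMM, filterByExpr, 4 group means, 8 residual degrees of freedom) and Benjamini-Hochberg over 15965 genes, with an adjusted p below 0.05 called. Alternatives used DESeq2 1.42.0 and limma 3.58.1. The fit was also run on simulated counts that held no effect of library number. That run cannot show how such an effect bears on the calls. Named were called genes, Cox7b, Uqcr10, isoform families, and the highest and lowest member of each complex. Members, lists and motifs were chosen with earlier results of these data known. Depth was 21.4 to 33.2 M counts.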

Additional observations from a re-analysis of the deposited data

How the results depend on the processing

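Under 22 alternatives none of the results changed direction after being called. For siERRa against siC, 0 called members became 1 with DESeq2, 1 with no filter on low counts and 4 with a replicate block. For siHCFC1 against siC, 2 became 4 with DESeq2, 10 with the replicate block, 1 without the 4 libraries numbered 3, and 0 to 2 when 1 library was left out. For siERRa+siHCFC1 against siC, 0 became 2 with DESeq2, 1 with only the groups compared and 6 with the block. Against siERRa it became 3 with DESeq2, 1 with DESeq2 size factors in edgeR, 1 with no filter, 4 with the block, and 0 to 1 on leaving out 1 library (1 without siHCFC1 library 2). Against siHCFC1 it became 1 with the block. The cause was not tested. Apart from DESeq2 and the block, the share of all tested genes called under these alternatives is not given here. Their counts therefore cannot be read as results about the members. With the replicate block, 1625, 3974, 4067, 3191 and 562 of the 15965 tested genes were called in the same order of comparisons. Each library's deviations from its group mean, in log counts, were correlated between libraries of different groups. Over 18 pairs of the same number these correlations were 0.0326 to 0.373, not all above 0.1. With each library set against each other group, the same number gave the highest correlation in 35 of 36 cases. The pairing is thus a hint from the data and not the design. Cox7b and Uqcr10 were each called after siHCFC1 in 17 of 22 alternatives. Of the 12 that left out 1 library, Cox7b was called in 8 and Uqcr10 in 7. Those include the fits without a siERRa or siERRa+siHCFC1 library, which is not in this comparison. Among fits without a siC or siHCFC1 library, Cox7b stayed called only without siC library 2 or siHCFC1 library 3. Uqcr10 stayed called only without siHCFC1 library 3. The median departure of the members from the sum of the single changes was -0.03, ran from -0.16 to 0.19 on leaving out 1 library (without siERRa library 2 and 3), and was 0.25 without the 4 libraries numbered 3. With 3 libraries a group, changes as large as that of Cox7c (-0.69) missed the threshold.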
